A study of Mus musculus with 22 samples.

Results

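MicroRNAs (miRNAs) in blood serum were set against those in small intestine, both from male mice aged 8 weeks that had received X-rays of 10 Gy at 1.0 Gy per minute. The groups were the 4 serum arrays and the 4 small intestine arrays at 10 Gy, 8 of the 22 arrays of the series, chosen by their titles alone. For serum, blood was taken from the heart into separator tubes and centrifuged, and intestine was stored frozen. RNA of each sample was labelled with Cy3 and put on an Agilent mouse miRNA array of its own. The labels give neither a strain nor the interval from irradiation to sampling. They do not tie a sample to an animal, so each p-value below reflects sample-to-sample spread that may be technical. The 4 serum arrays lay on 1 slide and the 4 intestine arrays on another, so a slide effect and the difference between serum and intestine cannot be told apart.

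miRNAs are short RNAs cut from hairpin precursors and loaded into Argonaute proteins. They guide these proteins to messenger RNAs mainly through bases 2 to 8, called the seed, and related miRNAs that share a seed form a family. Outside cells, miRNAs circulate bound to Argonaute or inside vesicles, and serum also takes up miRNAs from blood cells when these break. Intestine is a mixture of epithelium, smooth muscle, vessels, nerves and immune cells, and in such bulk samples fewer cells of a type and less RNA per cell cannot be told apart.

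Detection of a miRNA on an array required a probe of which 50% of the spots or more stood well above background. Levels are the log2 of the summed probe signal over the array's 75th percentile of the miRNAs detected on all 8 arrays, with a floor at -5.36. A level is therefore relative to other miRNAs of the same array, not an amount per volume of serum or weight of tissue. A difference is the serum mean minus the intestine mean on this scale, with the standard error (SE) of a limma fit over 4 and 4 arrays, and a miRNA passed at a Benjamini-Hochberg adjusted p under 0.05. Where every array of a group lies at the floor, that group adds no spread to the fit. The SE and p-value can then understate the variation between samples.

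The mature sequences on which the comparison turns are given here from RefSeq (GRCm38.p6), 5′ to 3′, with the seed in capitals. The first 6 are the miRNAs with the largest excess in serum among those detected on all 8 arrays, as far as the RefSeq table holds them. miR-6931-5p lies on the minus strand at chr11:102999896-102999916, miR-1892 on the minus strand at chr12:54645943-54645964 and miR-193b-3p on the plus strand at chr16:13449570-13449591.
miR-6931-5p: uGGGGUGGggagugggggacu
miR-5113: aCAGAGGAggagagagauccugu
miR-3473f: cAAAUAGGacuggagagaug
miR-1892: aUUUGGGGacgggagggaggau
miR-193b-3p: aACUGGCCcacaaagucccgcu
miR-6978-5p: aAGGGGUGagagagaagcuggug

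The next 5 were detected on every serum array and on no intestine array. miR-205-5p is encoded on the minus strand at chr1:193507503-193507524 and miR-208a-5p on the minus strand at chr14:54949107-54949128.
miR-205-5p: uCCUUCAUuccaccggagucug
miR-5110: gGAGGAGGuagagggugguggaauu
miR-8093: uUGGGGAGcagagcaugagug
miR-208a-5p: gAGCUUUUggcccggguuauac
miR-882: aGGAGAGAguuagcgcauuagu

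The following were detected on every intestine array and on no serum array, and include 2 families printed to show their shared seeds. miR-21a-5p lies on the minus strand at chr11:86584120-86584141. miR-194-5p (1 of 2 copies, plus strand, chr1:185313325-185313346) and miR-215-5p (plus strand, chr1:185313610-185313630) are neighbours, and miR-192-5p, at chr19:6264857-6264877 on the plus strand, shares the seed of miR-215-5p.
miR-21a-5p: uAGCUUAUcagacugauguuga
miR-194-5p: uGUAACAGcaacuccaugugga
miR-192-5p: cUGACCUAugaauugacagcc
miR-215-5p: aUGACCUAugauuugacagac
miR-200b-3p: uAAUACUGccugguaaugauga
let-7a-5p: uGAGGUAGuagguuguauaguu
let-7b-5p: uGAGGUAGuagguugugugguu
let-7c-5p: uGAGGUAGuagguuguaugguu
miR-126a-3p: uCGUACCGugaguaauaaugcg
miR-34a-5p: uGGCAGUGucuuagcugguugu

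The last set holds the miRNAs with the largest deficit in serum among those on all 8 arrays, and the pairs and trios of 1 seed whose members were not detected alike or were called in opposite directions. miR-29b-3p (1 of 2 copies, chr1:195037091-195037113) and miR-29c-3p (chr1:195037600-195037621) are neighbours on the plus strand, as are miR-212-3p (chr11:75173443-75173464) and miR-132-3p (chr11:75173723-75173744).
miR-3963: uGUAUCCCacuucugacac
miR-6366: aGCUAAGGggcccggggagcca
miR-494-3p: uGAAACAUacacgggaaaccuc
miR-29a-3p: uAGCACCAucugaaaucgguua
miR-29b-3p: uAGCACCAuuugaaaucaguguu
miR-29c-3p: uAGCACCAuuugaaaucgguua
miR-30a-5p: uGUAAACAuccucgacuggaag
miR-30c-5p: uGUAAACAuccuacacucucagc
miR-30e-5p: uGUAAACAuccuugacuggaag
miR-193a-3p: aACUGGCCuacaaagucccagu
miR-132-3p: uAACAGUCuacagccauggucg
miR-212-3p: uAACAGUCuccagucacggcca
miR-3473a: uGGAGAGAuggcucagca
miR-3473b: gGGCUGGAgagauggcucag
miR-3473e: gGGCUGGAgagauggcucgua

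Serum held far fewer detectable miRNAs than intestine. The serum arrays detected between 131 and 176 miRNAs (154.5 ± 23.3, SD, n = 4) and the intestine arrays between 332 and 389 (365.75 ± 27.4, SD, n = 4), with no overlap (p = 0.0286 by a two-sided exact permutation test, which 4 against 4 arrays cannot go below). The summed linear signal of detected miRNAs was 35518 ± 14976 in serum and 401924 ± 41372 in intestine (SD, n = 4 each), 11.3-fold higher in intestine (exact permutation p = 0.0286). The amount of RNA labelled per array is not given in the sources used here, and no spot was saturated. Arrays of one type resembled each other closely, with Pearson's r across the tested miRNAs of 0.961 to 0.985 within serum and 0.970 to 0.993 within intestine, against 0.148 to 0.278 between a serum and an intestine array. miRNAs are not independent replicates, and these values describe the arrays only.

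Of the 1881 miRNAs on the array 1420 were detected on none of the 8 arrays and 461 on at least 1, and the 339 detected on at least 4 were tested. By limma 297 of them (87.6%) differed, 77 higher in serum (22.7%) and 220 lower (64.9%). The arrays of both groups did not overlap for 280 miRNAs (82.6%), of which 278 were also called. With so high a share called, the call alone says little about any one miRNA, and the size of a difference and the detection on each side are given with it.

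The split between directions rests on how the arrays are put on one scale. Of the called miRNAs 25.9% were higher in serum with the scaling used here. Quantile normalization gave 118 higher and 182 lower (39.3% higher), the 75th percentile over all miRNAs 102 and 159 (39.1%), and unscaled signals 21 and 262 (7.42%). With normexp background correction, which compresses dim signals, 176 passed, 82 higher and 94 lower (46.6%). The median difference of all tested miRNAs was -1.37, and it was -0.83, -0.47, -2.25 and 0.22 under these 4 settings in the same order. A direction below is therefore relative to the miRNAs that both sample types share. Values under other settings stand beside many of the miRNAs whose sign or call they change.

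**Figure D1:**
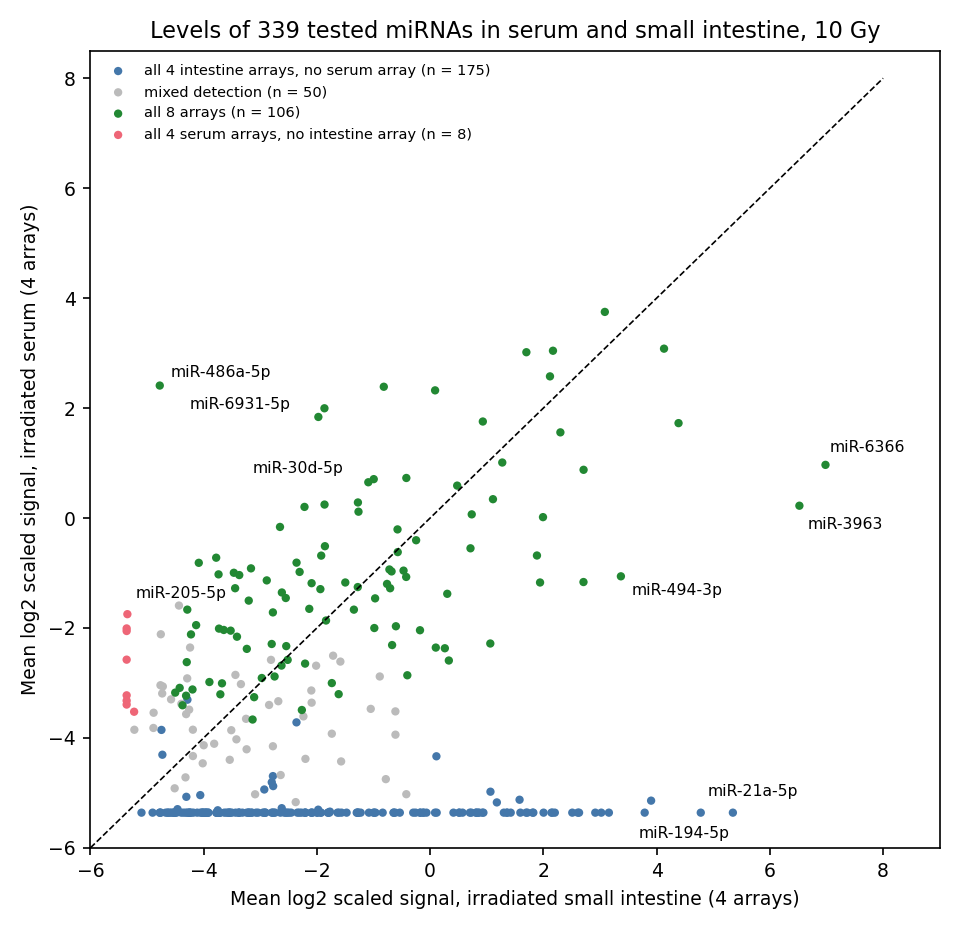
Mean log2 scaled signal of each of the 339 tested miRNAs in irradiated small intestine (x axis) and irradiated serum (y axis), 4 arrays each, coloured by where they were detected, with equal levels on the dashed line. The 175 miRNAs on no serum array lie mostly along the floor at -5.36, miR-486a-5p lies far above the dashed line and miR-3963 and miR-6366 far below it.

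Detection divided the tested miRNAs into classes. The largest held 175 miRNAs found on all 4 intestine arrays and on no serum array, and 170 of them were called lower in serum. The next held those found on all 8 arrays, where 53 were higher in serum, 28 lower and 25 were not called, with a median difference of 0.49. That balance depends on the scaling. Quantile normalization gave 84 higher and 9 lower (median 2.02), normexp correction 51 and 23 (0.47), and unscaled signals 12 and 52 (-0.90). A further 35 were found on all 4 intestine and some serum arrays, with 22 lower and 1 higher. On the other side, 8 were found on all 4 serum arrays and on no intestine array, and 9 on all 4 serum and some intestine arrays, and all 17 were called higher. A miRNA of a one-sided class passed the filter through the group where it is high, so these counts describe detection and are no test.

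For a miRNA detected on one side only, a lower limit of the fold was taken from its probes and the dimmest detectable signal of the other group. Of the 175 on no serum array, 123 had a limit above 1-fold, from 1.02 to 271 with a median of 2.86, and 73 of them exceeded 2-fold and 31 exceeded 10-fold. The other 52 had no fold that these arrays can bound, although most were called. The scaled detection limit was higher in serum, where the dimmest detected miRNA lay between -5.21 and -4.01 on each array against -6.61 to -5.53 in intestine. miR-149-5p and miR-191-3p passed as higher in serum (0.89 ± 0.31 and 0.98 ± 0.34) without being detected on any serum array, and their arrays overlapped, so no fold is given for them. Unscaled, both were lower (-0.50 and -0.41).

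miR-486a-5p, a miRNA abundant in red cells and their precursors and encoded within the ankyrin gene Ank1, showed the largest excess in serum. Its levels on the serum arrays were 2.43, 2.79, 2.16 and 2.26 and on the intestine arrays -4.44, -4.92, -5.19 and -4.56. The groups lay far apart, and the difference was 7.18 ± 0.24 (SE, limma adjusted p = 2.8e-14). It was the one member of the red cell list that was higher.

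The other red cell markers did not follow it. miR-451a, which is processed by Argonaute 2 without Dicer in erythroid cells, was detected on 1 of 4 serum arrays and on all intestine arrays. Its levels were -5.28, -3.73, -3.34 and -5.36 in serum and -1.21, -1.95, -2.37 and -0.76 in intestine, and it was lower in serum by limma (-2.86 ± 0.43, adjusted p = 1.2e-05). With normexp correction its difference was -0.44 and did not pass (adjusted p = 0.095). miR-144-3p, miR-144-5p and miR-486a-3p were detected on none of the 8 arrays. The summed scaled signal of the detected members of the list ran from 4.56 to 6.91 on the serum arrays and from 0.221 to 0.632 on the intestine arrays. The serum sum was nearly all miR-486a-5p and the intestine sum mostly miR-451a, so these sums do not describe the list as a group. The part of red cells in the serum profile was not tested.

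After miR-486a-5p came miRNAs with few known roles, several of them rich in G. miR-6931-5p was at 1.26, 2.10, 1.79 and 2.20 in serum and at -1.82, -1.80, -2.32 and -1.97 in intestine, a difference of 3.81 ± 0.25 (14.1-fold, limma adjusted p = 2.1e-10). miR-1897-5p was higher by 3.86 ± 0.32 (14.5-fold), and its serum arrays spread most widely, from 0.99 to 2.66. miR-5113 (3.27), miR-3473f (3.21) and miR-1892 (3.06) followed, and miR-6978-5p was higher by 2.62. None of the intestine arrays reached a serum array for any of these 6.

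miR-193b-3p, a miRNA known from brown fat and muscle differentiation, stood out because its seed relative was called in the other direction. It was at -1.28, -1.12, -0.38 and -1.32 in serum and at -3.32, -3.74, -4.31 and -3.58 in intestine, a difference of 2.71 ± 0.27 (6.55-fold, limma adjusted p = 6.5e-08). miR-193a-3p, with the same seed ACUGGCC, was detected on no serum array and on all intestine arrays, with intestine levels of -1.55, -2.31, -2.60 and -1.93. It was called lower, without a fold that can be bounded. With normexp correction miR-193a-3p was at -0.28 and did not pass (adjusted p = 0.26).

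Among miRNAs on all serum arrays and no intestine array, miR-205-5p had the largest bounded excess. This miRNA, known from stratified epithelia such as skin, was at -2.59, -1.41, -0.30 and -2.70 in serum, a wide spread, and at the floor on 3 intestine arrays and at -5.31 on the other, and was at least 9.46-fold higher. miR-5110 was at least 6.31-fold and miR-8093 at least 6.16-fold higher. miR-208a-5p, from a hairpin within the cardiac myosin gene Myh6, was at least 4.90-fold higher, with serum levels of -2.02, -2.26, -1.18 and -2.59. The other arm of that hairpin, miR-208a-3p, was detected on none of the 8 arrays. miR-328-3p was at least 4.39-fold and miR-882 at least 4.11-fold higher.

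**Figure D2:**
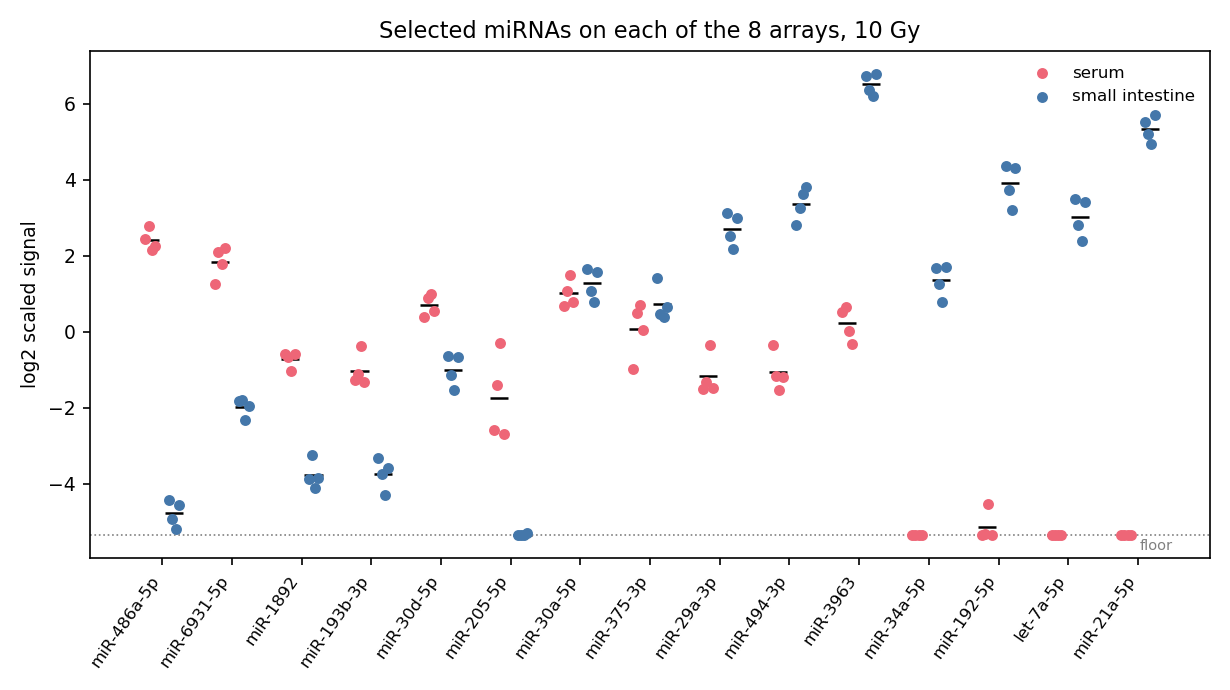
Log2 scaled signal of 15 miRNAs on each of the 4 serum and 4 small intestine arrays at 10 Gy, with the group mean as a black bar and the floor at -5.36 as a dotted line. Serum and intestine points are apart for all but miR-30a-5p and miR-375-3p, and miR-34a-5p, let-7a-5p and miR-21a-5p lie on the floor in serum.

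The largest bounded deficits in serum belonged, in order, to miR-21a-5p, miR-194-5p and miR-192-5p, followed by let-7b-5p, let-7a-5p and let-7c-5p. miR-21a-5p, a widely expressed miRNA that is abundant in inflamed and growing tissue, was at 5.53, 5.21, 4.95 and 5.70 in intestine and at the floor on every serum array, and was at least 271-fold lower in serum. miR-194-5p and miR-192-5p, which are induced as enterocytes differentiate, were at least 191-fold and 111-fold lower. For miR-194-5p the intestine arrays were at 5.23, 4.72, 3.84 and 5.33 and all serum arrays at the floor. miR-215-5p, 3 edits away from miR-192-5p and with the same seed UGACCUA, was at least 36.9-fold lower.

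All 12 members of the intestinal epithelium list were detected on every intestine array, which bears out the tissue label, and only miR-375-3p was detected on a serum array. The other 11 entered the test through intestine alone, so their calls describe detection. By limma 11 of the 12 were lower in serum (91.7%, against 64.9% of all tested miRNAs) and none higher, with a median difference of -7.24, against -1.37 over all tested miRNAs. With members detected on no serum array set at their limits, these medians became -4.83 and -0.29. The miR-200 family, which keeps epithelial cells in their state by repressing Zeb1 and Zeb2, was detected on no serum array. Its members miR-200c-3p, miR-429-3p, miR-200b-3p, miR-141-3p and miR-200a-3p were at least 36.9-fold, 35.2-fold, 32.1-fold, 25.2-fold and 16.3-fold lower. The summed scaled signal of the list was 47.4 to 112 on the intestine arrays and 0.508 to 1.63 on the serum arrays.

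miR-375-3p, known from endocrine cells of the pancreas and the gut, was the exception. It was at -0.98, 0.49, 0.70 and 0.05 in serum and at 1.43, 0.47, 0.38 and 0.66 in intestine. The groups overlapped, and the difference of -0.67 ± 0.33 did not pass (limma adjusted p = 0.070). With the replicate number as a block it did pass as lower. Its sign depends on the scaling, with 1.21 after quantile normalization (adjusted p = 0.0034), 0.35 with the percentile over all miRNAs (adjusted p = 0.34) and -2.05 unscaled (adjusted p = 0.00088).

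Smooth muscle and connective tissue miRNAs were lower in serum. Of the 13 in the smooth muscle and mesenchyme list 11 were tested and 11 were lower (100%, against 64.9% of all tested miRNAs), with a median of -4.09 (-2.19 at the limits). Of the 11, 9 were on no serum array and entered the test through intestine alone, so their calls describe detection. miR-143-3p, a marker of contractile smooth muscle, was at 2.40, 1.76, 1.51 and 2.34 in intestine and at the floor in serum, at least 39.3-fold lower. miR-145a-5p, transcribed together with it, was detected on all 8 arrays and was 5.49-fold lower (-2.46 ± 0.24, limma adjusted p = 4.4e-08). miR-199a-3p was at least 16.7-fold lower. Quantile normalization left 10 of the 11 called lower, the percentile over all miRNAs 9 and normexp correction 7, and none was called higher under these.

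Of the striated muscle list 3 of 6 members could be tested. miR-1a-3p was lower (at least 1.36-fold). miR-133b-3p was found on all 8 arrays, with -2.35, -0.41, -0.90 and -2.19 in serum and -0.43, -1.33, -1.38 and -0.75 in intestine, and did not pass (-0.49 ± 0.38, limma adjusted p = 0.23). Its serum arrays fell on both sides of the intestine arrays, and the sign turned to 1.35 with quantile normalization (adjusted p = 0.019). miR-133a-3p did not pass either (-1.03 ± 0.47), and turned to 0.53 with quantile normalization (adjusted p = 0.46). Unscaled, miR-133b-3p (-1.88, adjusted p = 0.0070) and miR-133a-3p (-2.41, adjusted p = 0.0064) passed as lower.

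Most tested markers of vessels and immune cells were lower in serum. miR-126a-3p, made by endothelium from the gene Egfl7, was at 2.00, 1.68, 1.27 and 2.30 in intestine and at the floor in serum, at least 34.7-fold lower. The other tested member of the endothelial list, miR-221-3p, was called lower at -1.98 with no fold that can be bounded, and reversed to 0.23 with normexp correction (adjusted p = 0.35). Both tested endothelial members entered through intestine alone and were called lower, against 64.9% of all tested miRNAs (median -4.57, -2.56 at the limits). In contrast, miR-222-3p was detected on 1 serum array and no intestine array and was not tested. In the leukocyte list 6 of 7 tested members were on no serum array and entered through intestine alone. Of the 7, 5 were lower and none higher (71.4% lower, near the 64.9% of all tested miRNAs), with a median of -2.58 (-0.43 at the limits). With normexp correction 2 were lower and the median was 0.01, and with quantile normalization 6 were lower and 1 higher. miR-142a-3p, specific to blood-forming cells, was at least 5.84-fold lower, and miR-223-3p, abundant in granulocytes, at least 5.38-fold lower. For miR-142a-5p (-2.58), at least 1.74-fold lower, normexp correction gave 0.01 (adjusted p = 0.98).

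miR-342-3p was the leukocyte miRNA that serum and intestine shared. Its serum arrays were at -1.0, -0.06, 0.41 and -0.18 and its intestine arrays at -0.33, -0.68, -1.16 and -0.14. They overlapped, and the difference of 0.37 ± 0.30 did not pass (limma adjusted p = 0.25). It passed as higher without serum replicate 1 (0.65, adjusted p = 0.044), with quantile normalization (2.23) and with the percentile over all miRNAs (1.39). Unscaled it passed as lower (-1.02, adjusted p = 0.024). miR-150-5p, abundant in mature lymphocytes, was detected on 1 intestine array and no serum array and was not tested. miR-122-5p, the main liver miRNA, and miR-122-3p, which make up the liver list, were detected on none of the 8 arrays.

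In the neuron list miR-7a-5p, miR-128-3p and miR-218-5p were tested, having entered through intestine alone. They were called lower (64.9% of all tested miRNAs were), at -3.58, -1.40 and -1.33, and 2 of these had a limit above 1-fold (1.10 and 1.06). Under normexp correction none of the 3 passed, and miR-128-3p and miR-218-5p turned to 0.29 and 0.31 (adjusted p = 0.23 and 0.21). miR-124-3p and miR-9-5p, the most characteristic neuronal members, were detected on none of the 8 arrays. miR-138-5p was detected on 2 serum arrays and no intestine array and was not tested.

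**Figure D3:**
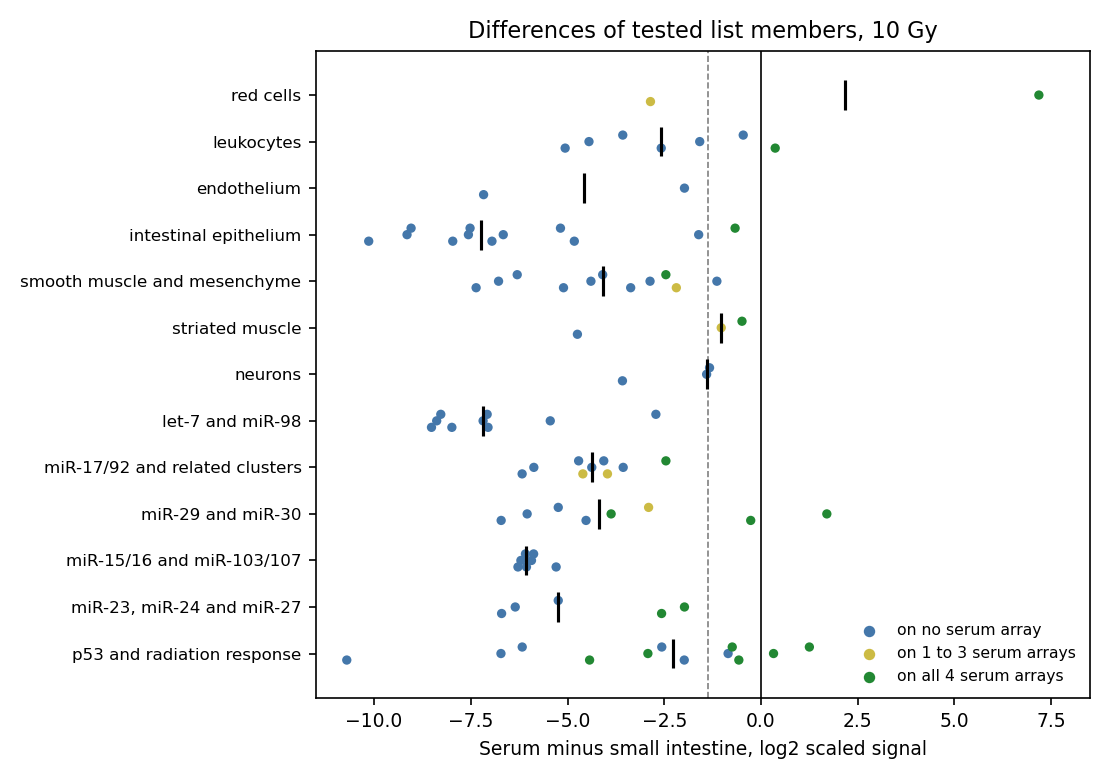
Serum minus small intestine difference (log2 scaled signal) of every tested member of 13 miRNA lists at 10 Gy, coloured by detection on the 4 serum arrays, with the list's median as a black bar and the median of all 339 tested miRNAs (-1.37) as a dashed line. The let-7, miR-15/16, miR-17/92, miR-23/24/27 and endothelium lists lie wholly to the left of the dashed line. miR-486a-5p at 7.18 and miR-30d-5p at 1.70 lie furthest to the right of 0.

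Families that most cells share also had members that were not detected in serum. The let-7 family, which restrains growth genes such as Lin28 and Hmga2, was detected in full on every intestine array and on no serum array. All 9 tested members, miR-98-5p included, were called lower in serum (64.9% of all tested miRNAs were), with a median of -7.18 (-4.75 at the limits). They entered the test through intestine alone, so this count describes their detection. let-7b-5p, let-7a-5p and let-7c-5p were at least 59.4-fold, 57.4-fold and 53.4-fold lower, and let-7a-5p stood at 3.49, 2.80, 2.39 and 3.41 in intestine. These 3 differ by 1 or 2 edits, and whether their probes share signal was not tested. Under normexp correction 8 of the 9 passed, all lower, and miR-98-5p was at -0.01.

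The list of miR-15, miR-16, miR-103, miR-107 and their relatives was equally one-sided, with 7 of 7 called lower (against 64.9% of all tested miRNAs) and none on any serum array, so that these too entered through intestine alone (median -6.06, -3.28 at the limits). miR-16-5p, often used as a reference in serum, was at 1.16, 0.69, 0.33 and 1.21 in intestine and at the floor on all 4 serum arrays, at least 9.35-fold lower. miR-15a-5p and miR-15b-5p were at least 18.5-fold and 15.3-fold lower. All 7 kept their call and direction under each scaling and with normexp correction.

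Of the miR-17/92 list, whose clusters promote proliferation, 9 members were tested and 9 were lower, against 64.9% of all tested miRNAs (median -4.37, -2.46 at the limits). Of the 9, 6 were on no serum array and entered the test through intestine alone. miR-92a-3p was the one member on all 8 arrays, at -3.61, -1.64, -1.40 and -2.78 in serum and at 0.55, -0.10, -0.50 and 0.44 in intestine, and was 5.49-fold lower (-2.46 ± 0.40, limma adjusted p = 2.4e-05). After quantile normalization it was at -0.73 and did not pass (adjusted p = 0.18). miR-25-3p has the same seed AUUGCAC and 4 edits to it, and was detected on 1 serum array. miR-20a-5p was at least 12.9-fold and miR-19b-3p at least 8.71-fold lower.

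All 5 members of the miR-23, miR-24 and miR-27 list were lower in serum, against 64.9% of all tested miRNAs (median -5.24, -2.57 at the limits). Of the 5, 3 still passed after quantile normalization, and 3 were on no serum array and entered through intestine alone. miR-23a-3p and miR-24-3p, which come from one transcript with miR-27a-3p, were detected on all 8 arrays. miR-24-3p was at -0.44, -0.84, 1.11 and 0.23 in serum and at 2.35, 1.83, 1.55 and 2.24 in intestine, 3.94-fold lower (-1.98 ± 0.35, limma adjusted p = 5.1e-05). miR-23a-3p was 5.93-fold lower (-2.57 ± 0.37), and serum replicate 3 was its highest serum array at 0.71. After quantile normalization neither passed, miR-23a-3p at -0.67 (adjusted p = 0.14) and miR-24-3p at -0.13 (adjusted p = 0.76). miR-27a-3p was detected on no serum array and was at least 19.8-fold lower.

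The miR-29 and miR-30 families split within themselves, with 6 of 8 members lower in serum, 1 higher and 1 that did not pass, or 75% lower and 12.5% higher, near the 64.9% and 22.7% of all tested miRNAs (median -4.20, -2.15 at the limits). miR-29a-3p, whose family represses collagen messages, was found on all serum arrays at -1.5, -1.33, -0.34 and -1.49 and in intestine at 3.13, 2.53, 2.18 and 3.00, and was 14.7-fold lower in serum (-3.87 ± 0.29, limma adjusted p = 1.7e-09). miR-29c-3p, 1 edit away, and miR-29b-3p, 4 edits away, were detected on no serum array and were at least 23.9-fold and 5.30-fold lower.

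In the miR-30 family, whose 5 members share most of their sequence, some were detected in serum and others were not. miR-30d-5p was higher in serum, at 0.39, 0.89, 1.0 and 0.55 against -0.64, -1.15, -1.54 and -0.66, or 3.26-fold (1.70 ± 0.25, limma adjusted p = 7.9e-06), but was not called without scaling. miR-30a-5p was at 0.68, 1.08, 1.5 and 0.78 in serum and at 1.66, 1.08, 0.78 and 1.58 in intestine, an overlap, and did not pass (-0.26 ± 0.26, adjusted p = 0.34). Its probes gave -0.45 to 0.45, and it turned to 1.74 with quantile normalization (adjusted p = 2.8e-05) and 0.76 with the percentile over all miRNAs (adjusted p = 0.020). Unscaled it passed as lower (-1.65, adjusted p = 0.0043). miR-30e-5p, 1 edit from miR-30a-5p, was detected on 2 serum arrays and was called lower (-2.90 ± 0.28). No fold is given for it, since the other serum arrays did not detect it. miR-30c-5p and miR-30b-5p were detected on no serum array and were at least 3.71-fold and 1.68-fold lower.

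Among the miRNAs tied to p53 or to radiation, 10 of 12 tested were lower in serum and 1 higher (83.3% and 8.33%, against 64.9% and 22.7% of all tested miRNAs). Quantile normalization made this 8 lower and 4 higher, normexp correction 6 and 1, and unscaled signals 11 and 0. Of the 12, 6 were on no serum array and entered the test through intestine alone. miR-34a-5p, a direct target of p53, was at 1.68, 1.26, 0.79 and 1.71 in irradiated intestine and at the floor on every irradiated serum array, at least 19.6-fold lower. miR-34b-5p was detected on no serum array and was called lower at -0.85, with no fold that can be bounded, and turned to 0.36 with normexp correction (adjusted p = 0.16). miR-130a-3p was at least 17.7-fold lower.

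Both arms of the miR-574 hairpin were detected on all 8 arrays and were called in opposite directions. The 5p arm was at -2.30, -3.22, -3.14 and -1.70 in serum and at -0.21, 1.14, -0.03 and 0.42 in intestine, 7.58-fold lower (-2.92 ± 0.35, limma adjusted p = 6.6e-07). The 3p arm was at -2.89, -2.36, -1.34 and -2.04 in serum and at -3.28, -3.11, -3.98 and -3.28 in intestine, 2.38-fold higher (1.25 ± 0.30, adjusted p = 0.0010), but unscaled it was at -0.13 and did not pass (adjusted p = 0.78). miR-483-5p, encoded within Igf2, did not pass (0.33 ± 0.22, adjusted p = 0.17), and its probes gave -0.06 to 0.87. It passed as higher with quantile normalization (2.09, adjusted p = 6.2e-06) and with the percentile over all miRNAs (1.35, adjusted p = 0.00078). Unscaled it passed as lower (-1.06, adjusted p = 0.023).

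The largest deficits on all 8 arrays belonged to miR-3963 and miR-6366. miR-3963 was at 0.53, 0.66, 0.02 and -0.32 in serum and at 6.74, 6.36, 6.2 and 6.79 in intestine, 78.7-fold lower in serum (-6.30 ± 0.25, limma adjusted p = 3.3e-13). miR-6366 was 64.7-fold lower (-6.02 ± 0.24), with serum arrays between 0.67 and 1.22 and intestine arrays between 6.55 and 7.39. Next was miR-494-3p, of the imprinted Dlk1-Dio3 region, at -0.35, -1.16, -1.55 and -1.18 against 2.81, 3.26, 3.61 and 3.80 and 21.6-fold lower (-4.43 ± 0.28). miR-8117 (-3.35), miR-466i-5p (-3.11) and miR-5100 (-2.66) were also lower, and the probes of miR-8117 gave -3.88 to -2.06. After quantile normalization miR-466i-5p was at -1.22 and did not pass (adjusted p = 0.064).

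Grouped by name alone, the miRNAs with numbers before miR-500 (other than the clusters below) made up 177 of the tested ones, and 81.9% of these were lower in serum and 9.6% higher, with a median of -2.46. With normexp correction 71 were lower and 18 higher, with a median of -0.16. In the 5p arms of miR-6896 through miR-7119, a late addition to the mouse catalogue, 16 of 39 were lower (41%) and 13 higher (33.3%), with a median of -0.15. That balance depends on the scaling, with 25 higher and 9 lower after quantile normalization, 13 and 2 with normexp correction, and 3 and 24 unscaled. Of the 39, 9 were on no serum array and entered through intestine alone. The 2 tested 3p arms of this range were higher (22.7% of all tested miRNAs were). Of the 11 tested from miR-676 through miR-721, 4 were higher (36.4%) and 7 lower (63.6%, near the 64.9% of all tested miRNAs). With normexp correction 4 were higher and 1 lower. Of the 11, 6 were on no serum array and entered through intestine alone. All 9 tested members of miR-466, miR-467 and miR-669, largely from a rodent cluster within the gene Sfmbt2, were lower (64.9% of all tested miRNAs were). Of the 9, 7 were on no serum array and entered through intestine alone, and 2 passed with normexp correction. Among the 5 tested miR-3473 miRNAs, all on every array, miR-3473f and miR-3473e were higher and 3 were lower, while after quantile normalization 4 were higher and 1 lower.

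Shared seeds gave a similar picture. Of the 339 tested miRNAs 293 had a RefSeq sequence and they held 241 seeds, of which 30 seeds were shared by 82 miRNAs. In 22 of the 30 every member was lower in serum, in 0 was every member higher, and in 19 no member was on any serum array. The members of those 19 entered the test through intestine alone, so these counts largely describe detection. Of all tested miRNAs 64.9% were lower and 22.7% higher. In 4 of the 30 the members were called in opposite directions. Beside the miR-193 pair these were miR-212-3p (0.64 ± 0.23, on all 8 arrays) with miR-132-3p (-3.26, on no serum array), miR-882 with miR-3473a (-2.63 ± 0.25), and miR-3473e (1.55 ± 0.28) with miR-3473b (-1.05 ± 0.25). Unscaled, miR-212-3p turned to -0.74 and miR-3473e was at 0.16 and did not pass. miR-3473b turned to 0.91 with quantile normalization. With normexp correction neither miR-193a-3p (-0.28) nor miR-132-3p (-0.27) passed. miR-132-3p and miR-212-3p derive from one transcript.

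Base composition differed between the classes, taken over all their members and not only the printed sequences. The 43 miRNAs with a sequence that were on all 8 arrays and higher in serum had 67.1 ± 12.4% G and C (SD across miRNAs), the 23 lower ones 57.3 ± 9.14% and the 21 not called 63.9 ± 10.9%. Those found on all intestine arrays and no serum array had 46.9 ± 9.57%, and all 1608 miRNAs on the array with a sequence 52.3 ± 11.3%. A run of 4 G (GGGG, searched in the mature RNA strand only, overlapping runs counted once) occurred in 44.2%, 34.8%, 38.1% and 7.10% of these classes and in 11.3% of all 1608. Across the 293 tested miRNAs the share of G and C and the difference had a Pearson's r of 0.533. Most of the 293 were found on all intestine arrays and no serum array, and entered the test through intestine alone. Their difference is largely the intestine level above the serum floor, so the r of 0.533 in part describes detection. Across the 87 on all 8 arrays, measured on both sides, r was 0.232. All points share the same 8 arrays and probe chemistry, in which G and C also raise binding, and the part of this in the result was not tested.

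**Figure D4:**
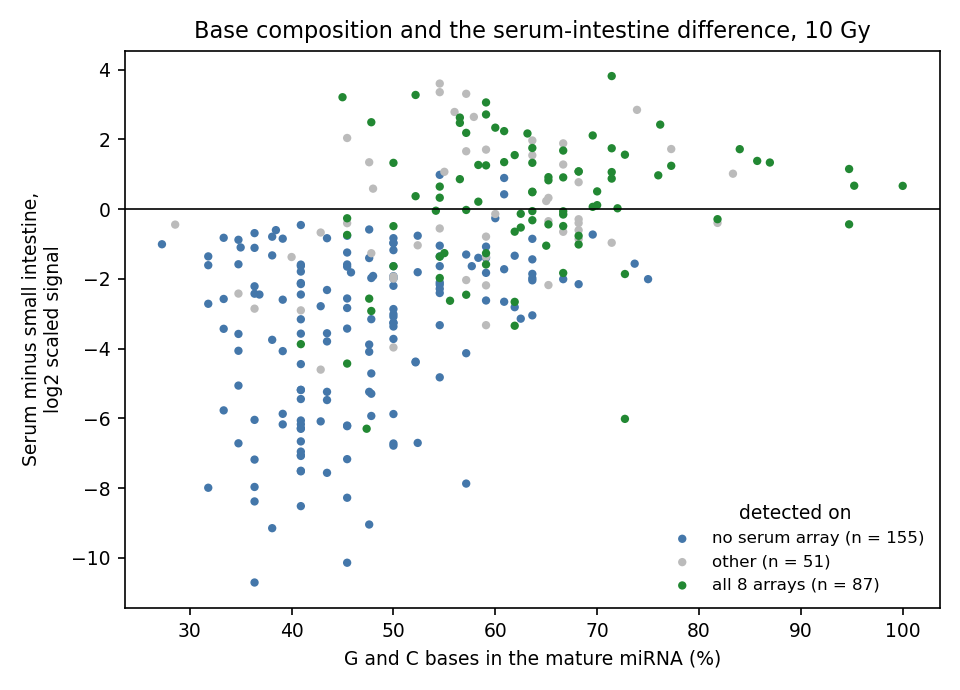
Share of G and C bases in the mature miRNA (x axis, percent) against the serum minus small intestine difference (y axis, log2 scaled signal) for the 293 tested miRNAs with a RefSeq sequence, coloured by detection. The miRNAs on no serum array lie mostly at the left and low (mean 46.9% G and C), and the 87 on all 8 arrays mostly to the right.

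Whether the serum and intestine difference itself depended on dose was tested with the unirradiated arrays of both types, 2 of serum and 4 of intestine at 0 Gy, in a limma fit of 14 arrays scaled over the 92 miRNAs they share. Most of the difference was present at both doses. Of 371 tested miRNAs 333 had the same sign at 0 and 10 Gy, 270 were called the same way at both and 8 in opposite ways. Across these miRNAs the differences at the 2 doses had a Pearson's r of 0.959, a description over miRNAs measured on the same 2 slides. The difference changed with dose for 83 miRNAs (22.4%), 12 of them upward (3.23%) and 71 downward (19.1%), where upward means that serum stood higher relative to intestine at 10 Gy. At an unadjusted p under 0.05 there were 115. Of the 83, 28 were detected on all 14 arrays, 3 upward and 25 downward.

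**Figure D5:**
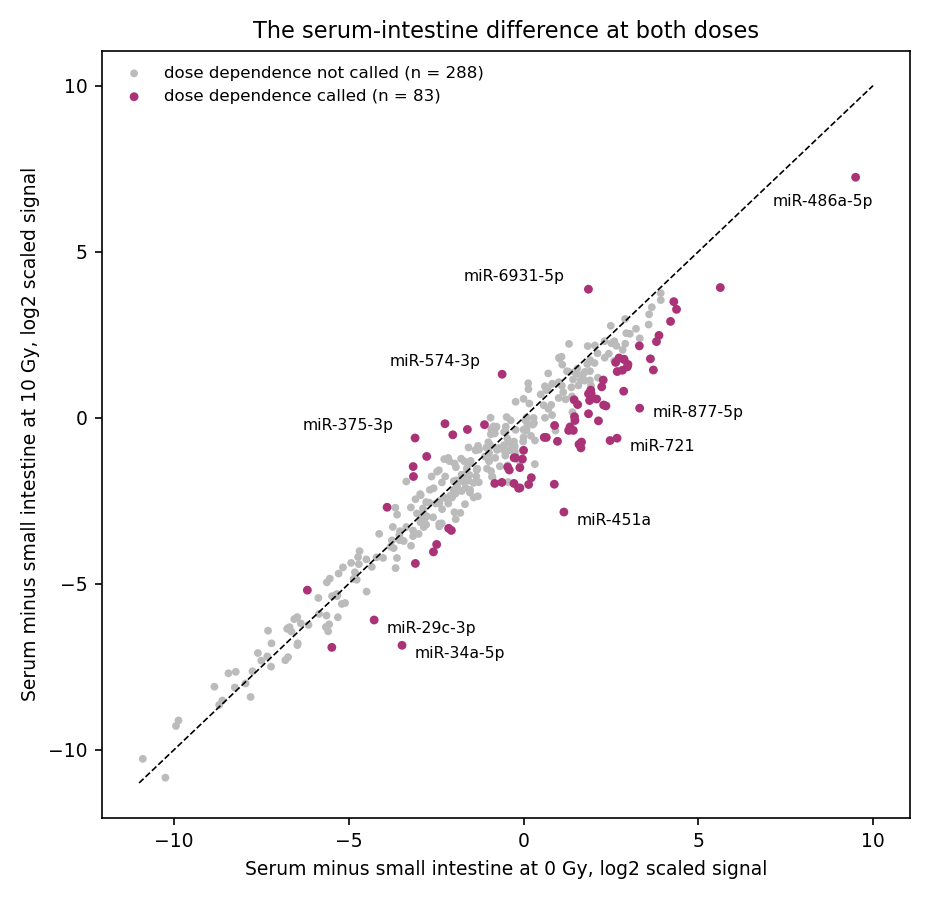
Serum minus small intestine difference (log2 scaled signal) at 0 Gy (x axis) and at 10 Gy (y axis) for the 371 miRNAs of the dose fit, with the 83 whose difference changed with dose in purple and equal differences on the dashed line. miR-375-3p, miR-574-3p and miR-6931-5p lie above the line, miR-451a and miR-34a-5p below it, and 333 of the 371 have the same sign on both axes.

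miR-375-3p showed the largest upward change with dose. It was at -3.11 and -2.21 on the unirradiated serum arrays and at -1.08, 0.11, 0.43 and -0.24 on the irradiated ones, whereas intestine lay between 0.20 and 0.63 at 0 Gy and between -0.02 and 1.19 at 10 Gy. The difference was thus -3.10 ± 0.38 at 0 Gy and -0.61 ± 0.31 at 10 Gy, and the change 2.49 ± 0.49 (limma adjusted p = 0.0017). For miR-6931-5p (2.01 ± 0.37) both sample types moved, serum from 0.75 and 0.62 up to between 1.16 and 1.92 and intestine from between -1.54 and -0.54 down to between -2.56 and -2.05. miR-574-3p changed by 1.92 ± 0.43 (adjusted p = 0.0043), and neither it (0.86) nor miR-6931-5p (0.95) passed unscaled.

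For several others the change lay on the intestine side. miR-34a-5p was at the floor on every serum array at both doses, and its intestine arrays were at -2.49, -2.31, -2.45 and -2.09 at 0 Gy and at 1.45, 0.77, 0.55 and 1.41 at 10 Gy (-3.38 ± 0.33, limma adjusted p = 1.2e-06). In the same way miR-150-5p (2.07 ± 0.58, adjusted p = 0.016) and miR-7002-5p (1.69 ± 0.49, adjusted p = 0.020) were at the floor in all serum arrays and lower in intestine at 10 Gy. Neither passed when the first or the second unirradiated serum array was left out, with an adjusted p of 0.062 and 0.052 for miR-150-5p and of 0.080 and 0.066 for miR-7002-5p. Of the 83 changes, 14 concerned miRNAs on no serum array at either dose, and these say nothing of serum. For miR-34a-5p, miR-150-5p and miR-7002-5p the floor left serum without spread, so their SEs hold no serum variation.

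On the serum side miR-451a was at -0.83 and -1.15 at 0 Gy and at -5.38, -4.11, -3.62 and -5.81 at 10 Gy, with intestine at -2.33, -2.55, -1.98 and -1.73 and then at -1.44, -2.45, -2.61 and -1.06. Its difference thus went from 1.15 ± 0.51 to -2.84 ± 0.42 (change -4.0 ± 0.66, limma adjusted p = 0.00033). miR-486a-5p, which the size rule did not choose, went down with it in serum, from 3.70 and 3.80 to 2.33, 2.41, 1.88 and 1.98, and its difference from 9.50 ± 0.25 to 7.24 ± 0.20 (change -2.26 ± 0.32, adjusted p = 9.3e-05). It was detected on no unirradiated intestine array, where its level lay at or near the floor of this fit (-5.81), so the value at 0 Gy depends on that floor. miR-721 (-3.29 ± 0.42), miR-7031-5p (-3.16 ± 0.29) and miR-877-5p (-3.04 ± 0.37) also went down, but with normexp correction they were at -0.15, -0.04 and 0.18 and did not pass, nor did miR-451a (-1.06, adjusted p = 0.079).

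These dose results rest on 2 unirradiated serum arrays. Without the first of them 39 miRNAs passed, 5 upward and 34 downward, and without the second 50, 4 upward and 46 downward. Scaling again set the split between directions, with 38 upward and 44 downward after quantile normalization, 7 and 181 unscaled, and 3 and 13 with normexp correction.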

How the data were processed

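Total RNA of serum and small intestine was labelled with Cy3 and hybridised to mouse miRNA arrays. The authors deposited scanner output, of which the intensity named processed signal was taken: per the file headers it is linear, background-subtracted and unscaled between arrays, and the authors deposited it as such. The software was Agilent Feature Extraction 11.5, per the submitters' processing notes. Each array had 58594 spots, 56430 of them for 4415 probes of 1881 miRNAs. The deposited flags for spots well above background, outlying or saturated were also used.

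Signals were averaged over a probe's spots that were not outlying, summed over a miRNA's probes, scaled to the 75th percentile of the miRNAs that every array compared detected, raised to a floor (each array's dimmest detected miRNA after scaling, median over arrays) and taken to log2. Groups were compared with limma 3.58.1 (lmFit, eBayes) in R 4.3.3 over miRNAs detected on at least 4 arrays, with Benjamini-Hochberg adjustment. The fit was tested on simulated data with the same normal spread in both groups. These data held no values at a floor, so that test does not cover miRNAs without spread in a group. Numbers of detected miRNAs and summed signals were compared by two-sided exact permutation tests. A fold written as "at least" sets the mean of a probe in the bright group against the higher of the probe's own and the dimmest detected signal in each array of the other, and takes the lowest over the probes, or the fitted fold where smaller. The number of arrays limits the precision.

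The lists were red cells, liver, leukocytes, endothelium, intestinal epithelium, smooth muscle and mesenchyme, striated muscle, neurons, let-7 and miR-98, miR-17/92 and related clusters, miR-29 and miR-30, miR-15, miR-16, miR-103 and miR-107, miR-23, miR-24 and miR-27, and p53 and radiation response. miRNAs were named as the 8 most higher and 8 most lower without overlap on all 8 arrays, the 6 largest bounded folds on each side, up to 4 passing members of each list, list members on all 8 arrays that did not pass, and up to 5 on each side of the dose dependence. A few others were named after their values were seen: miR-149-5p, miR-191-3p, miR-30d-5p, members of split seed groups and further family members. The groups, lists and tests were chosen with earlier results of these data known. Alternatives covered scaling, background correction (normexp, offset 50, on the median spot and background intensity), filters, floor, probe summary, samples in the fit, slide row, replicate block and left-out arrays. The series value table, set against the scanner values, lay within 1% of the processed signal for all 58594 spots of each array, so it is linear and not centred, with column medians of -1.55 to 2.1. Sequences came from RefSeq (GRCm38.p6), and 293 of 339 tested miRNAs matched by name.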

Additional observations from a re-analysis of the deposited data

Results flagged for a closer look

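In 95 groups of 4 arrays of the named miRNAs, 3 arrays lay far from the other 3, where chance gives about 1 in 20 groups. Serum replicate 1 was high for miR-6978-5p (-1.39, against -1.81 to -1.73). Serum replicate 3 was high for miR-29a-3p (-0.34, against -1.5 to -1.33) and for miR-23a-3p (0.71, against -1.34 to -1.04).

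The serum and intestine difference changed between the doses, by the interaction in limma, for the miRNAs named in that comparison. It was higher at 10 Gy by 2.49 for miR-375-3p, 2.07 for miR-150-5p, 2.01 for miR-6931-5p, 1.92 for miR-574-3p and 1.69 for miR-7002-5p. It changed by -4.0 for miR-451a, -3.38 for miR-34a-5p, -3.29 for miR-721, -3.16 for miR-7031-5p and -3.04 for miR-877-5p.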

How the results depend on the processing

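The count of 297 differing miRNAs (77 higher, 220 lower) was 176 (82 and 94) with normexp correction, 78 (51 and 27) over miRNAs on all 8 arrays, and 1604 (1375 and 229) with no filter. Of those 1375, 1242 had a difference of 0 within rounding, so that count is void. The number higher was 118 with quantile normalization and 21 unscaled. Other settings kept it within 1.5 times, with 285 to 314 without any 1 array (74 to 80 higher, 209 to 240 lower), 295 with slide row as a block, 273 in slide row 1 alone, and 63 higher and 159 lower in slide row 2 alone. An alternative chosen after seeing the data, the scanner's total gene signal, gave 296. Same-numbered serum and intestine arrays deviated from their group means with correlations of -0.27, -0.04, -0.15 and -0.08, and 0 serum arrays correlated best with their own number. The replicate block gave 298 (76 higher), and 72 dose changes (10 and 62). It changed the call of miR-375-3p (-0.67, adjusted p = 0.033).

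The 83 dose changes (12 upward, 71 downward) became 188 unscaled (7 and 181), 16 with normexp correction (3 and 13) and 30 over miRNAs on all 14 arrays (4 and 26). Quantile normalization gave 38 and 44, and a fit of all 6 groups 44 downward. Leaving out 1 array gave 39 to 85 (4 to 16 upward, 34 to 72 downward). Detected miRNAs differed by -222.5 to -203.4 and summed signals by -380754 to -350024 without any 1 array.

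The sign turned with normexp correction for miR-142a-5p (0.0096), miR-221-3p (0.23), miR-128-3p (0.29), miR-218-5p (0.31) and the dose change of miR-877-5p (0.18), with quantile normalization for miR-375-3p (1.21), miR-133b-3p (1.35) and miR-30a-5p (1.74), with the percentile over all miRNAs for the same 3 (0.35, 0.53 and 0.76), in slide row 2 alone for miR-30a-5p (0.057), and unscaled for miR-342-3p (-1.02) and miR-483-5p (-1.06). The causes were not tested. Of the 2142 values of single miRNAs 2091 kept direction and side of the threshold.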
